A study of Homo sapiens with 2 samples.

Results

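The genes described here act in DNA end joining, base excision repair, mismatch repair and DNA damage signalling. They were chosen by name, as 34 gene symbols of 24462 in the deposited tables: 11 end joining genes, 10 base excision genes, the mismatch repair gene MSH6, and 12 checkpoint and damage signalling genes. All 34 were found, and all 34 had at least 20 counts in a library, the minimum for a gene to count as measured, which 12644 symbols met. MDC1 was listed on 8 rows, which were summed. The resistant cells were RT-R-MDA-MB-231, a radiotherapy-resistant line made by giving X-rays to MDA-MB-231 cells in fractions of 2 Gy up to 50 Gy. They were set against MDA-MB-231 itself, the parental line, an established human triple negative breast cancer line. Both lines grew in RPMI medium with serum and antibiotics. RNA from each line gave 1 library with a Lexogen QuantSeq kit, which reads the ends of polyadenylated transcripts. The sources used here do not say whether the resistant line is a clone or a pool of survivors, or how long before harvest the last fraction was given.

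Breaks across both DNA strands are recognised by the Ku heterodimer, which recruits the DNA-dependent kinase and a ligase complex in end joining. The kinases ATM and ATR signal breaks and stalled replication forks to CHEK1, CHEK2 and WEE1, which hold the cell cycle, while H2AFX, MDC1 and the ubiquitin ligases RNF8 and RNF168 mark the chromatin around a break. In base excision repair a glycosylase removes a damaged base, APEX1 cuts the strand, POLB fills the gap and a ligase seals it. Ionizing radiation makes lesions of all these kinds, and many cancer cells depend on these pathways to survive it.

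The RT-R library held 10014804 counts and the parental library 9255008. Each line has 1 library, so no difference here was repeated in a second culture and no p-values are given. Each ratio below is of counts after TMM scaling, a correction for library size and composition, and carries in brackets an exact 95% interval that covers counting error only. The interval treats each read as independent. Reads copied by PCR are not independent molecules, so the intervals may be too narrow even for counting error. The line and its triple negative label were set against marker genes. Of 5 genes expected in MDA-MB-231 cells, VIM had 8454 RT-R and 4310 parental counts, and CD44 had 3129 and 2560. KRT18 had 2816 and 2525 counts and EGFR 749 and 444, whereas SPARC had few, 28 and 8. Of the genes expected to be absent or low in triple negative cells, ESR1 had 1 and 0 counts. PGR had 0 in both, while ERBB2 had 174 and 230. Of 13 leukocyte, endothelial and fibroblast markers, 10 had at most 5 counts in each library, while CD14 had 39 RT-R and 14 parental counts, PECAM1 50 and 223, and COL1A1 76 and 59. Summed counts were 41 in RT-R and 19 in parental cells for the leukocyte list, 56 and 224 for the endothelial list, and 80 and 59 for the fibroblast list, and their part in the results was not tested. The defining genes PTPRC, CD3E, DCN and PDGFRA had 0 in both. In bulk RNA, fewer cells that express a gene and less RNA per cell cannot be told apart.

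Of the 34 genes, 28 were within 1.5-fold of their parental level in RT-R cells, and those that differed were more often lower than higher. None of the 34 was at least 2-fold higher with an interval above 1, and only ATRIP was at least 2-fold lower with an interval below 1. The same rule called 6.95% of all measured genes higher and 4.00% lower. At 1.5-fold, 0 members were higher and 5 lower (H2AFX, OGG1, CLSPN, NTHL1 and ATRIP), that is 14.7% of the members, against 13.8% of all measured genes higher and 11.9% lower. The share of members that were lower thus lay near the background, and the share that were higher lay below it. At any fold, the interval lay above 1 for 2 members (5.88%) and below 1 for 12 (35.3%), against 27.7% and 30.4% of all measured genes, and it included 1 for the other 20. The median absolute log2 ratio was 0.26 over the 34 members and 0.34 over all measured genes. In all, 82.4% of the members and 72.2% of measured genes lay within 1.5-fold of equal expression. Summed over the libraries, the median count was 603 for members and 483 for all measured genes.

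The medians of the 3 larger groups lay close together, with no test of their difference. The median log2 ratio of RT-R to parental was -0.05 for end joining, -0.21 for base excision and -0.17 for checkpoint genes, and MSH6 lay at -0.43, against -0.01 for all measured genes. Less the median of their chromosomal neighbours, the medians were -0.20 for end joining, -0.12 for base excision and -0.19 for checkpoint genes, in another order. Levels in CPM are TMM-scaled counts relative to library size. Summed over its genes, end joining gave 837 CPM in RT-R and 759 in parental cells, a ratio of 1.10 (1.07 to 1.14). The sum of the checkpoint group was 525 CPM in RT-R and 750 in parental cells, 1.43-fold lower (1.38 to 1.48). Base excision summed to 544 and 633 CPM, 1.16-fold lower (1.12 to 1.21). These sums rest on few abundant genes: in sums taken after the values were seen, end joining without XRCC5 was 1.05-fold lower (1.01 to 1.09), and the checkpoint group without H2AFX and CLSPN was 1.14-fold lower (1.08 to 1.20). In base excision, PARP1 held 2685 of 5531 RT-R and 2319 of 5771 parental counts, with a ratio of 1.04, and no sum without it was taken.

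**Figure D1:**
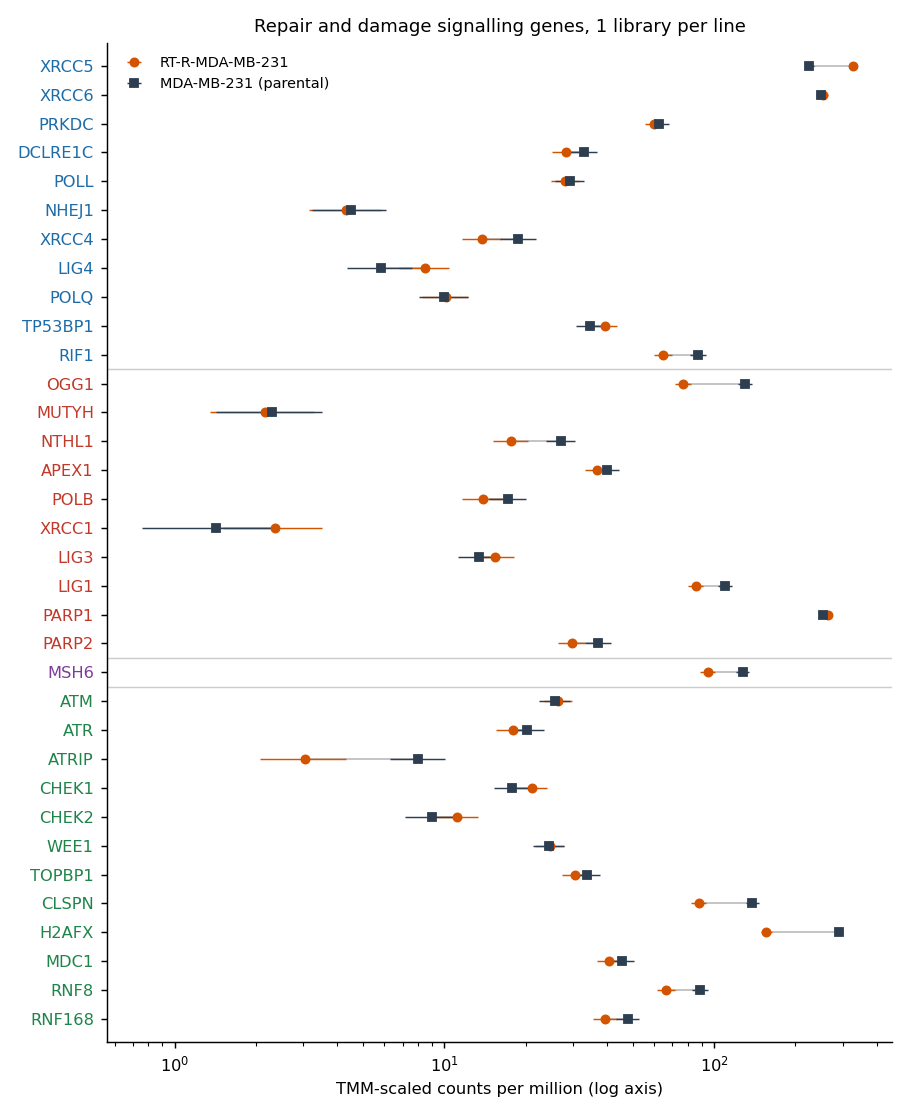
TMM-scaled CPM of the 34 genes on a log axis, with RT-R-MDA-MB-231 as orange circles and MDA-MB-231 as dark squares; bars are 95% Poisson intervals for counting error in the 1 library of each line, and label colours and lines across the plot separate end joining, base excision, mismatch repair and checkpoint genes. XRCC5 was the most abundant member in RT-R cells at 327 CPM, and H2AFX was the most abundant in parental cells at 290.

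Transcript levels ran from 2.16 CPM (MUTYH) to 327 CPM (XRCC5) in RT-R cells and from 1.43 CPM (XRCC1) to 290 CPM (H2AFX) in parental cells. The kit reads about 1 tag per transcript end, so CPM can be compared between genes without a length correction, apart from differences in how well each end was captured. In RT-R cells the order was led by XRCC5 with 327 CPM (316 to 338), then PARP1 with 264 (254 to 274), XRCC6 with 254 (244 to 264) and H2AFX with 156 (149 to 164). In parental cells it was led by H2AFX with 290 (279 to 302), then PARP1 with 254 (244 to 265), XRCC6 with 249 (239 to 259) and XRCC5 with 225 (215 to 235). The intervals of PARP1 and XRCC6 overlapped in both lines, whereas XRCC5 and H2AFX changed places between rank 1 and rank 4. The least abundant members in RT-R cells were MUTYH, XRCC1, ATRIP and NHEJ1, with 22, 24, 31 and 44 counts.

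Ku is a pair of proteins, XRCC5 (Ku80) and XRCC6 (Ku70), that binds DNA ends. XRCC5 had 3320 counts in RT-R and 2050 in parental cells, a ratio of 1.45 (1.37 to 1.54), which is above 83.6% of measured genes. XRCC6 had 2578 RT-R and 2267 parental counts, a ratio of 1.02 (0.963 to 1.08). The RT-R library thus held more XRCC5 than XRCC6 counts and the parental library fewer, 1.29 against 0.904 XRCC5 counts per XRCC6 count. As transcript ends may be captured unequally, these values do not show which transcript was more abundant in the cells. This ratio within a library needs no scaling, and it was 1.42 times as high in RT-R (1.32 to 1.54). The 30 measured genes on both sides of XRCC5 on chromosome 2 were themselves higher in RT-R, with a median log2 ratio of 0.50, against 0.54 for XRCC5.

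The enzymes that work on Ku-bound ends did not differ beyond counting error. PRKDC, the catalytic subunit of the DNA-dependent kinase, had 609 RT-R and 572 parental counts, a ratio of 0.955 (0.850 to 1.07). DCLRE1C, the nuclease Artemis, had 288 and 300 counts, a ratio of 0.861 (0.730 to 1.02). POLL, a gap-filling polymerase, had 285 and 266 counts, a ratio of 0.961 (0.810 to 1.14). All 3 intervals included equal expression, as did that of SUV39H2, which overlaps DCLRE1C and had 77 and 74 counts. There were 0.183 PRKDC counts per XRCC5 count in RT-R and 0.279 in parental cells, 1.52 times lower in RT-R (1.34 to 1.73).

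The counts of LIG4 and its partner XRCC4 differed in opposite directions between the 2 libraries. LIG4, the ligase of end joining, had 86 RT-R and 53 parental counts, a ratio of 1.45 (1.02 to 2.09). XRCC4, which stabilises LIG4, had 140 and 171 counts and was 1.36-fold lower in RT-R (1.08 to 1.72). There were 1.63 XRCC4 counts per LIG4 count in RT-R cells and 3.23 in parental cells, a ratio 1.98 times lower in RT-R (1.29 to 3.05). NHEJ1, the XRCC4-like factor XLF, had 44 and 41 counts, a ratio of 0.962 (0.614 to 1.51), so a change within that interval was not detectable at this depth. LIG4 lies on chromosome 13, where the median log2 ratio of 228 measured genes was 0.56 and that of the gene's 30 neighbours 0.75, against 0.54 for LIG4. Less the medians of their neighbours, the log2 ratios were -0.21 for LIG4 and -0.49 for XRCC4, both negative.

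Of the genes that steer breaks to one repair route or another, RIF1 was lower in RT-R, and the intervals of TP53BP1 and POLQ included equal expression. TP53BP1, which shields ends from resection, had 401 RT-R and 315 parental counts, a ratio of 1.14 (0.982 to 1.33). TUBGCP4, which overlaps it in the reference gene table, had 133 and 157 counts (ratio 0.760, 0.598 to 0.963). The TP53BP1 effector RIF1 had 660 and 796 counts and was 1.35-fold lower in RT-R (1.21 to 1.49). RIF1 counts per TP53BP1 count were 1.65 in RT-R and 2.53 in parental cells, 1.54 times lower (1.28 to 1.85). POLQ, the polymerase of the microhomology route of end joining, had 103 and 91 counts, a ratio of 1.01 (0.758 to 1.36).

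**Figure D2:**
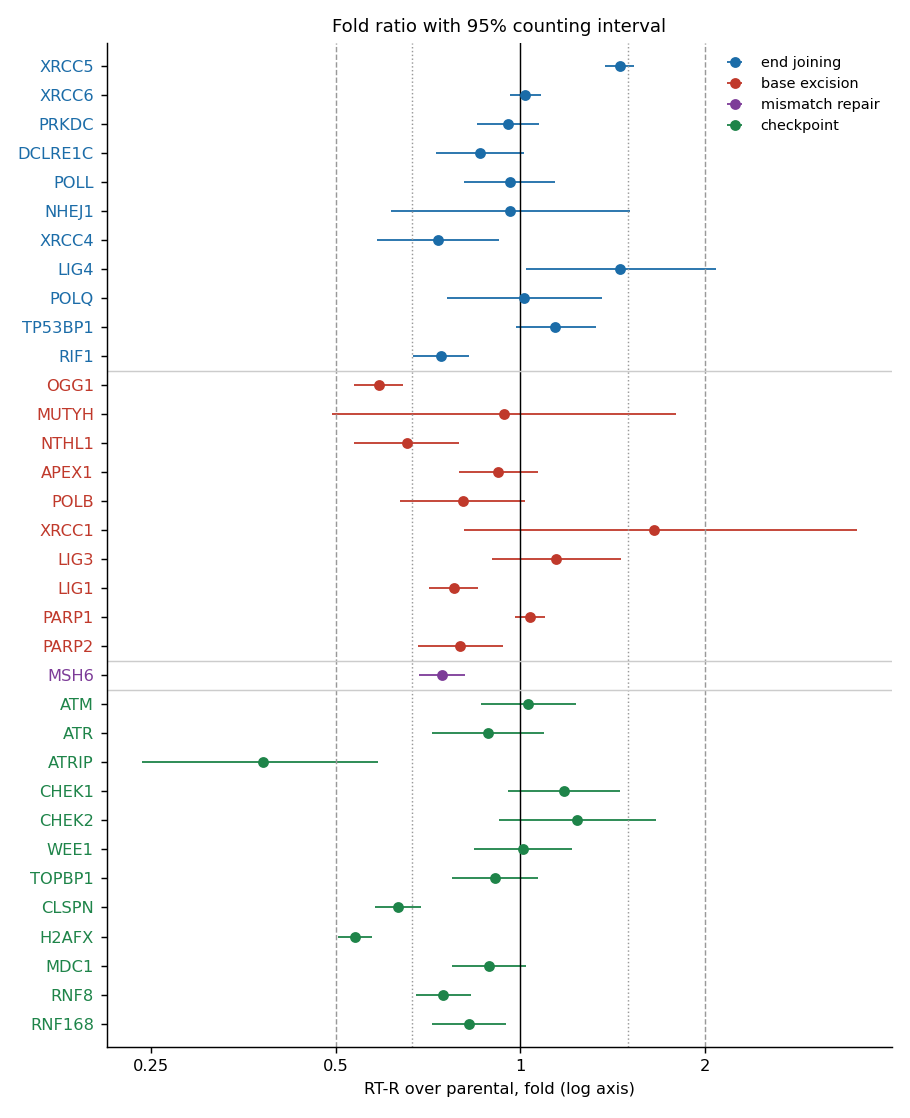
Fold ratio of RT-R over parental for each of the 34 genes on a log axis, coloured by group; bars are exact 95% intervals for counting error, the solid line marks equal expression, dotted lines 1.5-fold and dashed lines 2-fold. ATRIP alone lies beyond 2-fold, and XRCC5 and LIG4 are the only members whose whole interval lies above 1.

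Among the base excision genes the glycosylase genes OGG1 and NTHL1 were the lowest in RT-R relative to parental cells. OGG1, which removes oxidised guanine, had 779 RT-R and 1189 parental counts and was 1.70-fold lower in RT-R (1.55 to 1.87). NTHL1, which removes oxidised pyrimidines, had 179 and 246 counts, 1.53-fold lower in RT-R (1.26 to 1.87). MUTYH, which removes adenine paired with oxidised guanine, had 22 and 21 counts, a ratio of 0.939 (0.493 to 1.80), too few to detect a difference of the size seen for OGG1. The 3 genes summed to 980 RT-R and 1456 parental counts, 1.66-fold lower in RT-R (1.53 to 1.80). OGG1 took 79.5% of that sum in RT-R (exact binomial interval 76.8 to 82.0) and 81.7% in parental cells (79.6 to 83.6). OGG1 overlaps CAMK1 and TADA3 in the reference gene table. CAMK1 had 409 and 676 counts (ratio 0.542) and TADA3 358 and 479 (ratio 0.670), so the genes that share this locus were lower as well. Whether reads of these genes entered the OGG1 count was not tested. MUTYH overlaps TOE1, which had 243 and 150 counts, a ratio of 1.45.

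Of the genes for strand cutting, gap filling and break sensing, PARP2 was lower in RT-R and the intervals of APEX1, POLB and PARP1 included equal expression. APEX1, the endonuclease that cuts at the empty site, had 374 RT-R and 364 parental counts, a ratio of 0.921 (0.795 to 1.07), and it overlaps TMEM55B, which had 636 and 765 counts. POLB, the gap-filling polymerase, had 141 and 157 counts, a ratio of 0.805 (0.637 to 1.02). Of the poly(ADP-ribose) polymerases that sense strand breaks, PARP1 had 2685 and 2319 counts, a ratio of 1.04 (0.982 to 1.10), and PARP2 had 302 and 339 counts, 1.25-fold lower in RT-R (1.07 to 1.47). PARP2 counts per PARP1 count were 0.112 in RT-R and 0.146 in parental cells, 1.30 times lower (1.10 to 1.54).

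The DNA ligases shifted in their proportions. LIG1, which joins Okazaki fragments in replication and seals long repair patches, had 868 RT-R and 1000 parental counts, 1.28-fold lower in RT-R (1.17 to 1.41). LIG3, the ligase of nuclear and mitochondrial short patches, had 157 and 123 counts, a ratio of 1.14 (0.898 to 1.46). LIG1 made up 78.1% of the ligase counts in RT-R (75.6 to 80.5) and 85.0% in parental cells (82.9 to 87.0), whereas LIG4 made up 7.74% in RT-R (6.24 to 9.47) and 4.51% in parental cells (3.39 to 5.85). The share of LIG3 was 14.1% in RT-R (12.1 to 16.3) and 10.5% in parental cells (8.77 to 12.4), with overlapping intervals. XRCC1, the scaffold that binds LIG3, had 24 and 13 counts, a ratio of 1.66 with an interval from 0.810 to 3.54, so its direction was not detectable at this depth. LIG3 overlaps RFFL in the reference gene table. RFFL had 338 and 307 counts and the readthrough symbol RAD51L3-RFFL 335 and 307, so these overlapping symbols held nearly the same counts as each other in each library. Whether the same reads were counted for both symbols, or for other overlapping genes named here, was not tested.

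The mismatch repair gene MSH6, whose protein helps to find mismatched bases, had 965 RT-R and 1162 parental counts and was 1.34-fold lower in RT-R (1.23 to 1.46). FBXO11, which overlaps MSH6, had 537 and 689 counts, a ratio of 0.699.

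At the top of the damage signal, the kinase genes did not differ beyond counting error while the ATR partner was lower. ATM had 269 RT-R and 234 parental counts, a ratio of 1.03 (0.862 to 1.23). ATR had 183 and 185 counts, a ratio of 0.887 (0.719 to 1.09). ATM, ATR and PRKDC, the related kinases of this pathway, had shares of their summed counts with overlapping intervals, 25.4% ATM in RT-R (22.8 to 28.1) and 23.6% in parental cells (21.0 to 26.4), and 57.4% PRKDC in RT-R (54.4 to 60.4) and 57.7% in parental cells (54.6 to 60.8). ATRIP, which brings ATR to single-stranded DNA, had 31 counts in RT-R and 73 in parental cells and was 2.63-fold lower in RT-R (1.70 to 4.14). Only 1.60% of measured genes had a lower log2 ratio. ATR counts per ATRIP count were 5.90 in RT-R and 2.53 in parental cells, 2.33 times as high (1.43 to 3.85). ATRIP shares its locus with TREX1 and a readthrough transcript of both genes, and TREX1 had 59 and 76 counts, a ratio of 0.696 (0.487 to 0.991). On chromosome 3 the 30 neighbours of ATRIP had a median log2 ratio of -0.31, against -1.38 for ATRIP.

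The effector kinases did not differ beyond counting error. CHEK1, the main target of ATR, had 214 RT-R and 163 parental counts, a ratio of 1.18 (0.956 to 1.45). CHEK2, the main target of ATM, had 113 and 82 counts, a ratio of 1.24 (0.922 to 1.66). WEE1, which phosphorylates and restrains CDK1, had 250 and 222 counts, a ratio of 1.01 (0.839 to 1.22). WEE1 counts per count of PKMYT1, a related kinase with the same substrate, were 0.564 in RT-R and 0.554 in parental cells, a ratio of 1.02 (0.808 to 1.29).

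Of the fork mediators and break-site chromatin genes, CLSPN and H2AFX differed most. CLSPN, the adaptor claspin that lets ATR activate CHEK1, had 891 RT-R and 1264 parental counts and was 1.58-fold lower in RT-R (1.45 to 1.73). CHEK1 counts per CLSPN count were 0.240 in RT-R and 0.129 in parental cells, 1.86 times as high (1.48 to 2.34). TOPBP1, which activates ATR, had 311 and 307 counts, a ratio of 0.908 (0.773 to 1.07). H2AFX, the histone variant phosphorylated around breaks, had 1588 and 2647 counts and was 1.86-fold lower in RT-R (1.75 to 1.98). H2AFX makes both polyadenylated and stem-loop transcripts, and the kit reads the polyadenylated form. DPAGT1, which overlaps H2AFX in the reference gene table, had 672 and 593 counts, a ratio of 1.02.

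Downstream of H2AFX the differences were smaller. The adaptor gene MDC1 had 413 RT-R and 417 parental counts, a ratio of 0.888 (0.773 to 1.02). These counts are sums over 8 rows, and whether a read was counted on more than 1 of them was not tested. The ubiquitin ligase gene RNF8 had 675 and 808 counts and was 1.34-fold lower in RT-R (1.20 to 1.48), and RNF168, which extends the ubiquitin mark, had 401 and 436 counts, 1.21-fold lower in RT-R (1.06 to 1.39). RNF168 counts per RNF8 count were 0.594 in RT-R and 0.540 in parental cells, a change whose interval (ratio 1.10, 0.926 to 1.31) included no change. All 4 break-site chromatin genes had negative log2 ratios, and for 3 of them the interval excluded equal expression, where 6449 of 12644 measured genes had a negative ratio and 30.4% an interval below 1.

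**Figure D3:**
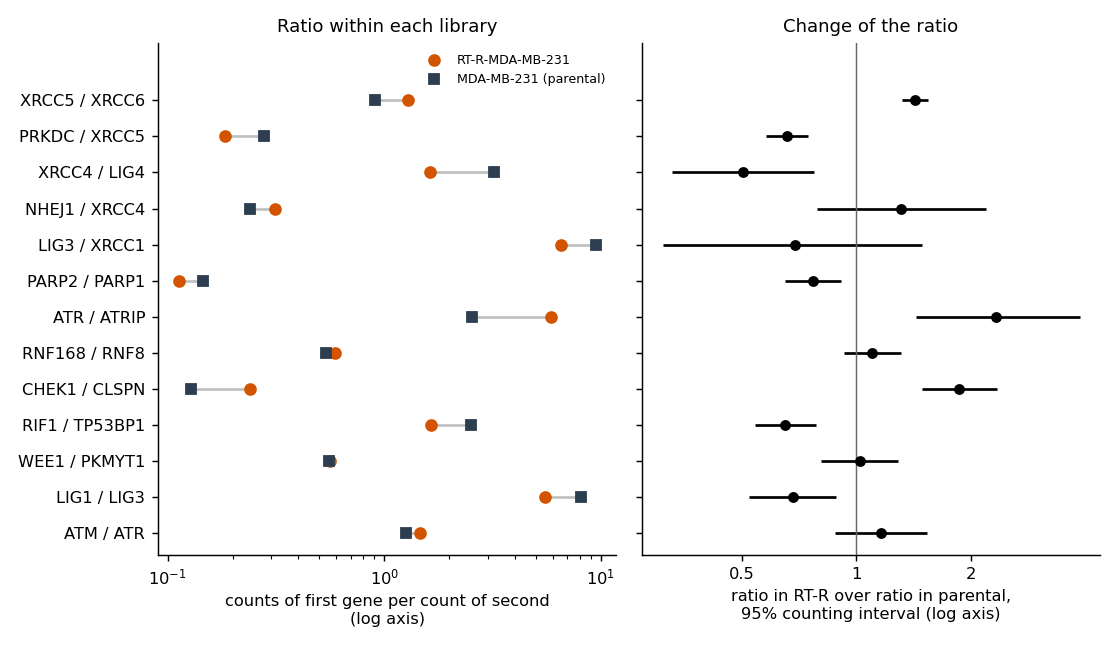
Ratio of counts for 13 pairs of partner genes: the left panel gives counts of the first gene per count of the second on a log axis, with RT-R as orange circles and parental as dark squares, and the right panel gives the RT-R ratio over the parental ratio with its exact conditional 95% interval. The interval lay above 1 for 3 pairs (XRCC5/XRCC6, ATR/ATRIP and CHEK1/CLSPN), below 1 for 5, and included 1 for 5. Some genes are in more than 1 pair, and no share over other pairs of genes was computed. For the ratios of single measured genes, the interval lay above 1 in 27.7% and below 1 in 30.4%. The counts of pairs are thus not a result particular to these partners.

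Transcripts of several members peak in S phase, so marker genes of the cell cycle are given beside them. Over all measured genes, 30.4% had an interval below 1 and 27.7% above it. Of 20 S phase markers, 16 had an interval below 1 and 1 (CCNE2) above it, with a median log2 ratio of -0.33 and summed levels of 23582 counts in RT-R and 26623 in parental cells, 1.26-fold lower in RT-R (1.24 to 1.28). Of 20 G2/M markers, 15 had an interval below 1 and 1 (CDC20) above it, with a median of -0.27 and 49856 and 52947 counts, 1.18-fold lower (1.17 to 1.20). E2F1, a transcription factor of the G1/S transition, had 1014 and 1615 counts, 1.78-fold lower in RT-R (1.64 to 1.92). The cyclin gene CCNA2 had 1094 and 1832 counts, 1.87-fold lower (1.73 to 2.01). As examples, CLSPN (-0.66), MSH6 (-0.43) and LIG1 (-0.36) lay below these medians on the log2 scale, while CHEK1 (0.23) and POLQ (0.02) lay above them. Other members lay on both sides, such as H2AFX (-0.89) and RIF1 (-0.43) below and TOPBP1 (-0.14) above. No rule was set for which members peak in S phase. The part of the cell cycle in these differences was not tested.

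Promoters of the members were searched for E2F sites, the sequence bound by the E2F factors that drive S phase genes. RefSeq promoters of GRCh38.p14, 250 bases before to 50 after the gene start, were found for 30 of the 34 members. Each of TTTCCCGC, TTTGGCGC, TTTCGCGC and TTTGCCGC was sought on both strands. A match was found in 5 of the 30 (16.7%), against 3.33% of 27305 promoters in all and 5.49% of the 9974 promoters of measured genes. The 5 promoters are printed because they share the motif while the genes differ: CLSPN, LIG1 and MSH6 were lower in RT-R, and the intervals of TOPBP1 and XRCC6 included 1. Capitals mark the match.
CLSPN (chr1:35769929-35770228, minus strand): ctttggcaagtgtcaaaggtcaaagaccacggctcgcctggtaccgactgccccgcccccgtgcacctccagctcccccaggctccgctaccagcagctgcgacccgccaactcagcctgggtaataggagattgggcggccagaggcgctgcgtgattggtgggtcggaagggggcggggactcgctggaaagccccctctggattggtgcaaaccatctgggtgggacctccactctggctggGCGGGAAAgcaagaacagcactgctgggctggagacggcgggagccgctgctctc
LIG1 (chr19:48170295-48170594, minus strand): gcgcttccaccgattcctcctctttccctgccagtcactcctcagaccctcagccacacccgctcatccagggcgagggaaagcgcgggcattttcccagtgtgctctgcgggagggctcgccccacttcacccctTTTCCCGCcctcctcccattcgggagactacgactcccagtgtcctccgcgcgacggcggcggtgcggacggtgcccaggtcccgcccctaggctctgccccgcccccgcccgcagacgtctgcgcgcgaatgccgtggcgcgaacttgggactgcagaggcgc
MSH6 (chr2:47782895-47783194, plus strand): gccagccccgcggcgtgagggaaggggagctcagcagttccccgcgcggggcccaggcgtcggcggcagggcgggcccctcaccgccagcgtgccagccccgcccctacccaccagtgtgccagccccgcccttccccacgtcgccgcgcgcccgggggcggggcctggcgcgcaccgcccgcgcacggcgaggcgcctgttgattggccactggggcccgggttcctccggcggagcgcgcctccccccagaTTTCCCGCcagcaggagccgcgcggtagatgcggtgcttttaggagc
TOPBP1 (chr3:133661892-133662191, minus strand): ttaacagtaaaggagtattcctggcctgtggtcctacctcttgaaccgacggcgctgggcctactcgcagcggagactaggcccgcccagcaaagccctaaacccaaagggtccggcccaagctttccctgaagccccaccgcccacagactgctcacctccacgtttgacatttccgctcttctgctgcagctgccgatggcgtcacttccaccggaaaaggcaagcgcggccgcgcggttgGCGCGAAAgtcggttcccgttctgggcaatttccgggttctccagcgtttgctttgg
XRCC6 (chr22:41621045-41621344, plus strand): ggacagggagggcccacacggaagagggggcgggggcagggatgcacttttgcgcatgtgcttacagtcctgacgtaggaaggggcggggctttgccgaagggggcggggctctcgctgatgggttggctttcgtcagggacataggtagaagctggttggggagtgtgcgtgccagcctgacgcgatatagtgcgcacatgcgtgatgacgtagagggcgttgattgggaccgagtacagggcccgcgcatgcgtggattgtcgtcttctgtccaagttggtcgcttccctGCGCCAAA
The match begins at base 246 of the window in CLSPN, 137 in LIG1, 254 in MSH6, 244 in TOPBP1 and 293 in XRCC6. The log2 ratios of these genes were -0.66, -0.36, -0.43, -0.14 and 0.03. The promoters of H2AFX, OGG1, NTHL1 and ATRIP, the other members called lower at 1.5-fold, held no match in this window, nor did those of CHEK1 and POLQ. The search covered only these exact letters in a short window, so a missing match does not show that E2F sites are missing. Whether E2F sites have a part in the ratios was not tested.

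**Figure D4:**
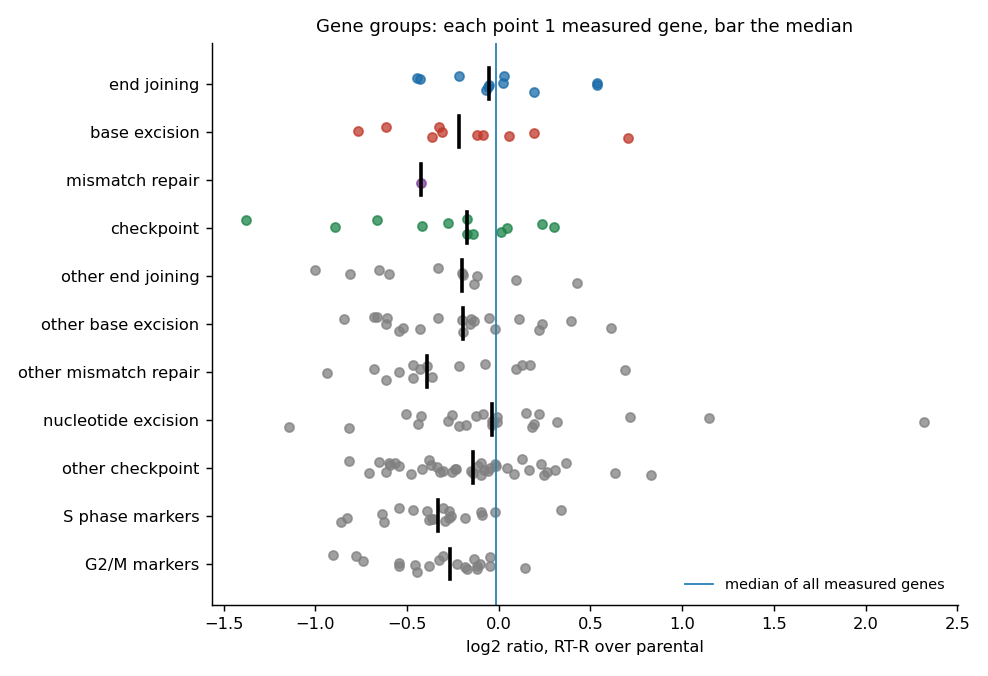
Log2 ratio of RT-R over parental for each measured gene of the member groups (coloured) and of related lists (grey), with the median of each as a black bar; the blue line is the median of all measured genes, -0.01. The S phase and G2/M markers have medians of -0.33 and -0.27, and ERCC6 is the far right point at 2.32.

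Other genes of the same pathways were summarised from lists that share some members with each other, to be read against the 13.8% of all measured genes that passed the 1.5-fold rule upward and the 11.9% that passed downward. Of 11 measured further end joining genes, 0 passed the 1.5-fold rule upward and 3 downward, and their median log2 ratio was -0.20. Among them WRN, a helicase and nuclease, had 162 RT-R and 108 parental counts, a ratio of 1.34 (1.05 to 1.73), and TDP2, which frees ends from trapped topoisomerase, had 102 and 144 counts, 1.57-fold lower (1.21 to 2.05). Of 21 further base excision genes, 1 passed upward and 5 downward, and the median was -0.19. The chromatin protein gene HMGB1 had 10822 and 6342 counts, a ratio of 1.53 (1.48 to 1.58), and APEX2, a relative of APEX1, had 237 and 382 counts, 1.80-fold lower (1.52 to 2.12). HMGB1 lies on chromosome 13 and APEX2 on the X chromosome, where their neighbours had medians of 0.71 and -0.68.

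Of 15 measured further mismatch repair and clamp-loading genes, 1 passed upward and 3 downward, and the median was -0.39. The clamp loader genes RFC3 and RFC2 differed in opposite directions. RFC3 had 428 RT-R and 238 parental counts, a ratio of 1.61 (1.37 to 1.90), beside a neighbour median log2 ratio of 0.83 on chromosome 13. RFC2 had 288 and 495 counts, 1.92-fold lower (1.65 to 2.22), beside a neighbour median of -0.38 on chromosome 7. Less these medians, the log2 ratios were -0.14 for RFC3 and -0.56 for RFC2, both negative. Of 39 further checkpoint genes, 2 passed upward and 6 downward, and the median was -0.14. CDKN1A, the p21 inhibitor of cyclin-dependent kinases, had 719 and 363 counts, a ratio of 1.78 (1.56 to 2.02). USP28, a deubiquitinase that binds TP53BP1, had 152 and 240 counts, 1.76-fold lower (1.43 to 2.17).

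Nucleotide excision repair, which removes bulky lesions, held the largest single differences among these lists. Of 24 measured genes, 3 passed the 1.5-fold rule upward and 2 downward, and the median was -0.04. ERCC6, which restarts transcription at blocked polymerases, had 141 RT-R and 25 parental counts, a ratio of 5.06 (3.29 to 8.08), and PGBD3, which overlaps it, had 16 and 9 counts. CUL4A, a ubiquitin ligase scaffold, had 1597 and 648 counts, a ratio of 2.21 (2.02 to 2.42), and its neighbours on chromosome 13 had a median log2 ratio of 0.77 against 1.14 for the gene. CETN2, a subunit of the damage sensor with XPC, had 169 and 335 counts, 2.21-fold lower (1.83 to 2.68), and its neighbours on the X chromosome had a median of -0.75 against -1.14.

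Members were also set against the 15 measured genes on each side of them, or fewer near a chromosome end (20 in all for PARP2 and 23 for APEX1). The gene's log2 ratio less the median of its neighbours was 0.04 for XRCC5, which was close to its neighbours, and -0.21 for LIG4, whose sign turned. It was -0.89 for H2AFX, -0.73 for CLSPN, -1.07 for ATRIP, -0.50 for NTHL1 and -0.45 for OGG1. These members are named here because their own ratios were the lowest, so differences below 0 largely follow from that choice. A single neighbour can still be lower: CAMK1, which overlaps OGG1, had a ratio of 0.542 against 0.587 for OGG1. NHEJ1 lies near XRCC5 on chromosome 2, with 9 of 30 neighbours in common, and its log2 ratio of -0.05 lay below a neighbour median of 0.53. Whether these stretches differ in DNA copy number between the lines was not tested.

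**Figure D5:**
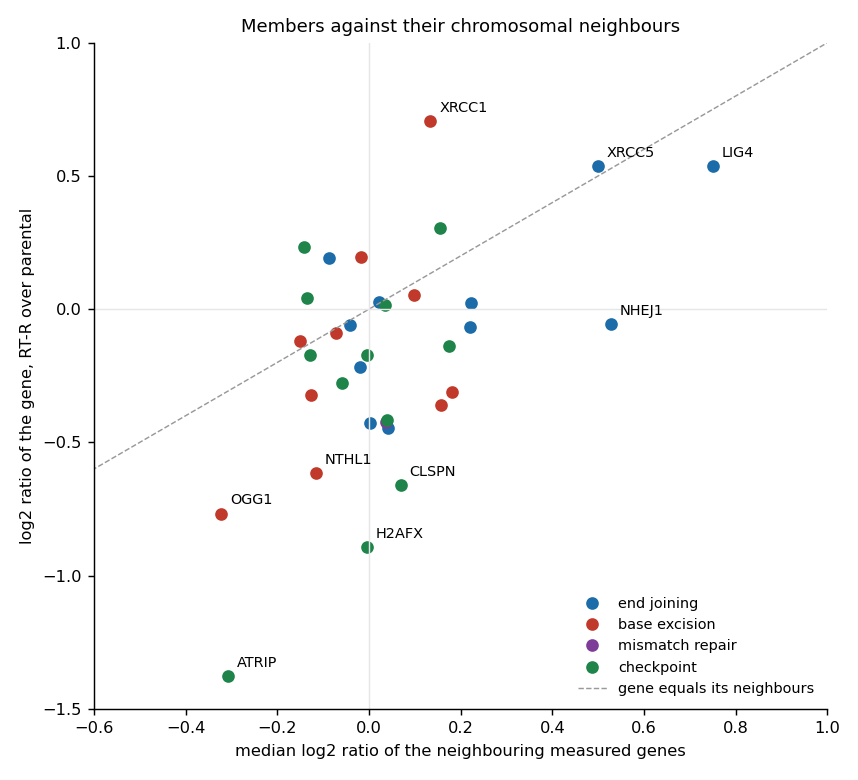
Log2 ratio of each of the 34 members (vertical axis) against the median log2 ratio of its neighbouring measured genes (horizontal axis), coloured by group, with genes named where either value is large. XRCC5 lies close to the dashed line of equality, at 0.54 against 0.50 for its neighbours, whereas H2AFX, CLSPN and ATRIP lie well under it.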

How the data were processed

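Total RNA of both lines was sequenced, 1 library per line. Each deposited table holds raw counts per gene symbol, not normalized by the authors. The submitters' processing notes name hg19, bedtools, Bowtie2 and bcl2fastq (2.20.0.422). Settings, annotation and strand use are not stated in the sources read, so reads of overlapping, antisense or near-identical genes cannot be told apart.

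Rows with the same symbol were summed (25737 rows, 24462 symbols). TMM, the trimmed mean of M-values, was computed with edgeR 4.0.16 (R 4.3.3); the effective size of the RT-R library was 1.12 times the parental. Log2 ratios used scaled counts plus 0.5. Intervals are exact conditional (Clopper-Pearson) 95% intervals from scipy 1.17.1; pair ratios are conditional odds ratios of raw counts. Calls needed 20 counts in a library, a difference of 2-fold (or 1.5-fold) and an interval that excluded 1. No test across samples is possible, and no p-values were computed. Gene order came from RefSeq (GRCh38.p14), matched by symbol or unambiguous synonym for 98.6% of measured genes; promoter coordinates are of that build and not of hg19. The calculations were run on simulated Poisson counts with known fold differences. Those counts hold no PCR copies, spread between cultures or overlapping genes, so they check the arithmetic and not the intervals in real data. The text names all 34 members, their pair partners and the genes overlapping them that had at least 20 counts in a library, and of each other list a choice from the 2 highest and 2 lowest measured genes by the interval bound nearest to 1; marker genes and PGBD3 are named beyond that. The members and lists were chosen with earlier results of these data known. A gene pair and some list entries are not reported here. Alternatives were scaling by totals, by upper quartiles and by the DESeq2 1.42.0 median of ratios, count minimums of 0 and 100, a pseudocount of 5, fold with no interval, and subtraction of neighbours.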

Additional observations from a re-analysis of the deposited data

How the results depend on the processing

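With 1 library per line, leaving out a replicate was not possible, and no paired analysis was possible because each line has 1 library. Under scaling by totals, DESeq2 or the upper quartile and with a pseudocount of 5, all 34 log2 ratios kept their sign and stayed inside their intervals, and the 4 group medians stayed between the medians of their members' interval bounds. Dropping the count minimum or the interval rule moved no count by over 1.5 times. With a minimum of 100 counts, 0 members were called lower, because ATRIP was no longer measured, and 359 genes were called higher and 267 lower, against 879 and 506 at 20 counts. At 1.5-fold, 5 members were lower, and 1742 measured genes were higher and 1508 lower. Subtraction of chromosomal neighbours turned the sign of 5 members (APEX1, LIG4, PARP1, POLQ and WEE1), none of them called, and moved 6 members outside their intervals (XRCC5, PRKDC, LIG4, OGG1, LIG1 and PARP1). It left the group medians at -0.20 for end joining, -0.12 for base excision and -0.19 for checkpoint genes. Depth limits genes with few counts: of the 34 members, the widest intervals as a ratio of their bounds were those of XRCC1 (0.810 to 3.54), MUTYH (0.493 to 1.80) and NHEJ1 (0.614 to 1.51), and among members not called at 1.5-fold, those of XRCC5, LIG4, XRCC4, POLB and CHEK2 also reached beyond 1.5-fold in 1 direction. Intervals cover counting error only and say nothing about the spread between cultures.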

Other observations

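Further motifs of cell cycle promoters were counted in the 30 member promoters. The CCAAT box, read as the letters CCAAT on either strand, was found in 18 of 30 (60.0%). It was found in 37.1% of promoters of measured genes and 35.7% of all 27305 promoters. The CHR element of G2/M genes, read as TTTGAA or TTCGAA on either strand, was found in 7 of 30 (23.3%). It was found in 10.9% of promoters of measured genes and 16.6% of all 27305 promoters. These counts describe letters in a window and were given no test. The H2AFX promoter held 4 CCAAT matches and that of CLSPN 3, as did that of CHEK2, whose interval included equal expression.

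The members are spread over 15 chromosomes. Chromosome 3 holds 6 of them (POLQ, OGG1, ATR, ATRIP, TOPBP1 and RNF168), and the median log2 ratio of its 711 measured genes was -0.21. Of these 6, POLQ had a positive log2 ratio of 0.02 and the other 5 lay between -0.14 and -1.38. The medians of their own neighbours varied along the chromosome. They were 0.22 for POLQ, 0.17 for TOPBP1, -0.004 for ATR, -0.06 for RNF168, -0.31 for ATRIP and -0.32 for OGG1.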
